A study of Mus musculus with 2 samples.

Results

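The genes described here are 10 genes of ileal bile acid handling: the carriers Slc10a2 and Slco2b1, the binding protein Fabp6, the efflux transporter subunits Slc51a and Slc51b, the receptors Nr1h4 and Gpbar1, the FXR target genes Nr0b2 and Fgf15, and the conjugating enzyme Baat. They were found by gene name among the non-control probes of both arrays, with Slc51a and Slc51b filed under their older names Osta and Ostb, and have 12 of the 55681 non-control probes. The set was chosen on the processed signals and detection flags of these same arrays, so the members' values are a description and support no test. The mice were wild-type males, and the RNA came from their intestinal epithelial cells after segments of intestine had been incubated for 2 h. One group received 0.5 µM cholic acid, a primary bile acid, and the other the vehicle alone (DMSO at 0.05% with ethanol at 0.25%). Whether cholic acid was given in that solvent is not stated in the labels, which also give neither the strain or age of the mice, nor how many mice were used, nor where along the intestine a segment was taken. Each condition has 1 one-colour array: differences have no replicate check, and none was tested. The series asks which genes may respond to bile acids through PPARα, a nuclear receptor that induces genes of fatty acid oxidation.

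Bile acids made in the liver are taken back up in the last part of the small intestine, the ileum. Slc10a2 (ASBT) brings them in at the apical membrane, Fabp6 binds them in the cytosol, and the Slc51a-Slc51b heterodimer (OSTα-OSTβ) exports them across the basolateral membrane. Inside the enterocyte they activate the nuclear receptor FXR (Nr1h4), which binds DNA as a partner of RXR and induces Fabp6, both Slc51 subunits, the corepressor Nr0b2 (SHP) and the hormone Fgf15. Fgf15 travels to the liver and lowers bile acid synthesis, and Nr0b2 can hold back Slc10a2.

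The sequences behind the results are given first. The probe is the piece of the transcript that each array value reports, and both probes below are those of the genes of the set that were highest in cholic acid relative to vehicle. The Fabp6 probe lies at chr11:43410973-43411032 and that of Slc10a2 at chr8:5086145-5086204, both on the minus strand of mm9, per the file headers. Exon annotation of mm9 was not used here.
Fabp6 probe: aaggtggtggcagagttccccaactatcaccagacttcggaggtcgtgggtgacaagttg
Slc10a2 probe: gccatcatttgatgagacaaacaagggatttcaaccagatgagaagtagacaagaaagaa

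No stretch of 20 bases in any of the 12 probes was shared with a probe of another gene. The pair of probes for Slco2b1 overlap by 38 bases, so they read nearly the same piece of one transcript, whereas the Slc51a probes lie 175 bases apart.

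FXR with RXR binds an inverted repeat of AGGTCA with a 1-base spacer, called IR-1. The 250 bases before each listed transcription start (RefSeq, GRCm38.p6) were searched on both strands, and 8 of the 10 genes had an entry. The strict letters AGGTCANTGACCT were in 0 of the 10 windows of these genes and in 2 of 32851 windows in all. A relaxed form, GGTNANTNACC, which contains the strict one, occurred in 72 windows, or 0.219%. Among them were the windows of Fabp6, with matches beginning 221 and 141 bases before the start, and of Slc51b, with 1 match 186 bases before it. The 250 bases of both are printed because these genes share the match, which is in capitals. That of Fabp6 is chr11:43601563-43601812 and that of Slc51b chr9:65422774-65423023, both on the minus strand of GRCm38.p6.
Fabp6 upstream: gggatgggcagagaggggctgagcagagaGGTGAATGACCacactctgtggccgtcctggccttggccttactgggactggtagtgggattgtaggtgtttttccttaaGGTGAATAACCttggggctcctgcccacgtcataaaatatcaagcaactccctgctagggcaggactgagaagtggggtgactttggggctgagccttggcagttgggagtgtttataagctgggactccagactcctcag
Slc51b upstream: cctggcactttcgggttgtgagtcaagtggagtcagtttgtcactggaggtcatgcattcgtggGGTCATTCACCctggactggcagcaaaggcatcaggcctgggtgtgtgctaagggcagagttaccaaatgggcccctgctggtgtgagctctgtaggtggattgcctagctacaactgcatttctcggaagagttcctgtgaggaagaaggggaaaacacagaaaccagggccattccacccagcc

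The other gene with a large positive difference, Slc10a2, had no match to either form of IR-1. The LRH-1 element CAAGGNCA was found once each before Fabp6, Slc51a and Nr0b2, against 5.53% of all windows. The CDX letters TTTATNG were found 3 times before Slc10a2 and once before Slco2b1, against 9.81%. The direct repeat bound by PPARα with RXR, strict AGGTCANAGGTCA (0.0335% of all windows) or the overlapping relaxed GGNCANAGGNCA (0.694%), was in 0 of the windows of these genes. A match is a string of letters in a window and does not show binding.

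Both arrays came from 1 slide and 1 scan. A probe counts as measured where the scanner software flagged it well above background, and 22612 of 55678 probes (40.6%) were so on both arrays, among them 9 of the 12 probes of the set. The lowest signal so flagged was 14.6 for vehicle and 13.01 for cholic acid, and 1 of 308 negative control spots was flagged on each. The cholic acid array was dimmer: the 75th percentile of the probes measured on both was 1060 in vehicle and 741 in cholic acid. Signals below are unscaled intensities, each with the scanner software's error estimate for that spot, which is not a spread between animals. Differences are log2 values after each array was scaled to its own 75th percentile, cholic acid minus vehicle. Array signals of different probes cannot be ranked against each other.

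**Figure D1:**
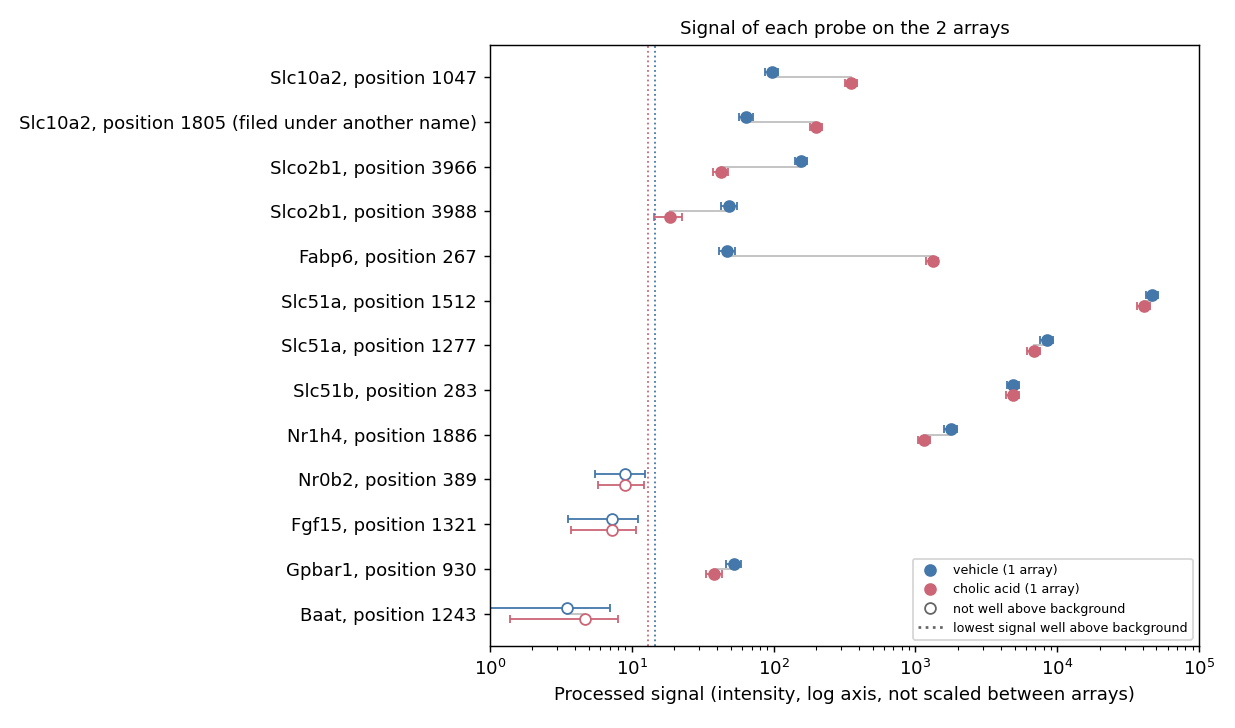
Processed signal of each probe (x axis, intensity on a log scale, not scaled between arrays) in vehicle (blue) and in cholic acid (red), with bars for the scanner software's error estimate of the spot, cut off at the axis limit of 1. Open circles are not well above background, and dotted lines mark the lowest signal that is. Fabp6 moved from 47.3 to 1320, while the 3 genes with open circles lay at the same low signal on both arrays within their errors.

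Of all 12859 genes with a value on both arrays, 8.62% lay at least 2-fold apart: 6.57% had the higher value in cholic acid and 2.05% in vehicle. Of the 10 genes of the set, 7 were measured on both arrays: 2 (Fabp6 and Slc10a2) were 2-fold or more higher in cholic acid, 1 (Slco2b1) at least 2-fold lower and 4 less than 2-fold apart. Neither array measured the other 3 genes, Nr0b2, Fgf15 and Baat. The median difference of the 7 was 0.26, and that of all 12859 genes was 0.08. Because the set was chosen with these results known, nothing is read from these counts.

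Uptake at the apical membrane is the task of Slc10a2, the sodium-dependent bile acid transporter. Its probe read 97.9 ± 10.3 in vehicle and 353 ± 35.4 in cholic acid. The higher signal was thus on the array that was dimmer as a whole, and the unscaled ratio of 3.61 became 5.16-fold after scaling (log2 difference 2.37). Among the 1000 genes nearest in mean signal the robust SD of the difference was 0.46. In all, 41 other genes had a larger positive difference, and 0.366% of genes differed more in either direction. A second Slc10a2 probe, filed under a clone name and therefore outside the set, read 64.4 ± 7.34 in vehicle and 200 ± 20.2 in cholic acid. It lies 2719 bases further along the gene on mm9 (chr8:5083366-5083425) and gave a difference of 2.15, in the same direction.

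Slco2b1 encodes OATP2B1, an organic anion carrier with a wide range of substrates. Its brighter probe read 157 ± 16 in vehicle and 42.9 ± 5.17 in cholic acid. The dimmer probe read 48.9 ± 6.26 and 18.6 ± 4.13. Both probes were lower in cholic acid, by log2 differences of -1.36 and -0.88, and their mean was -1.12 (2.17-fold lower). The dimmer cholic acid signal lies close to the lowest that counts as measured, and 175 other genes had a larger negative difference. With a background correction that adds an offset of 50 to every spot, the gene's difference was -0.30, under 2-fold. The 1000 genes nearest in mean signal had a median difference of 0.28 and a robust SD of 0.54.

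Fabp6, the cytosolic bile acid-binding protein of ileal enterocytes, read 47.3 ± 5.87 in vehicle and 1320 ± 132 in cholic acid. Before background subtraction the vehicle spot had a mean pixel intensity of 120 with a pixel SD of 22.8 over 47 pixels, against a local background of 63. On the cholic acid array the spot mean was 1350 with a pixel SD of 236 over 43 pixels, against a background of 60.5. The vehicle signal was therefore low but measured, and the cholic acid signal was far above background. The unscaled ratio was 27.9, and after scaling the difference was 5.32 (39.9-fold). No other gene measured on both arrays differed by more, and the robust SD of its 1000 nearest genes was 0.41. In the authors' deposited table of processed values Fabp6 stood at 44.7 and 1608, a ratio of 36.0. The gene rests on 1 probe with 1 spot per array.

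**Figure D2:**
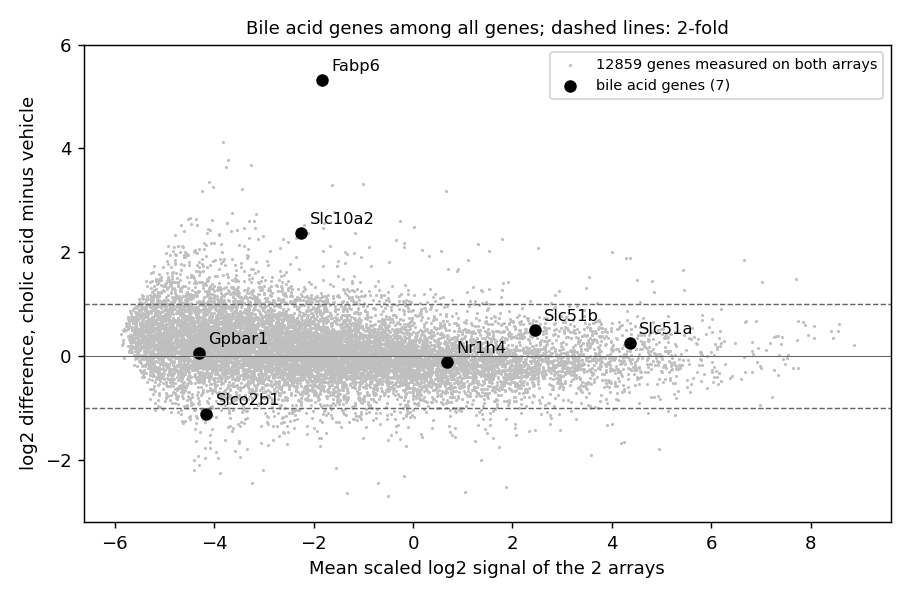
Log2 difference, cholic acid minus vehicle (y axis), against mean scaled log2 signal (x axis) for the 12859 genes measured on both arrays (grey), with the 7 measured bile acid genes in black and dashed lines at 2-fold. Fabp6 lies above every grey point at 5.32, Slc10a2 lies at 2.37, Slco2b1 at -1.12, and the other 4 lie between the dashed lines.

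Efflux across the basolateral membrane needs both Slc51 subunits. One Slc51a probe read 46600 ± 4660 in vehicle and 40600 ± 4060 in cholic acid, and the other read 8440 ± 844 and 6810 ± 681. The Slc51b probe read 4880 ± 488 and 4850 ± 485. Unscaled, the Slc51a signals were thus slightly lower and that of Slc51b nearly equal in cholic acid, and only the scaling puts both genes on the positive side. The scaled differences were 0.26 for Slc51a, over its probes at 0.32 and 0.21, and 0.51 for Slc51b (1.42-fold). With spike-in scaling the differences were -0.58 and -0.33. Many genes stood further from 0 than either: 58.1% of genes differed more than Slc51a and 31.1% more than Slc51b. These FXR targets, 1 of them with an IR-1 match as printed above, were bright on both arrays and did not share the size of the Fabp6 difference.

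Nr1h4 encodes FXR itself. Its probe read 1780 ± 178 in vehicle and 1150 ± 115 in cholic acid, which after scaling was a difference of -0.11 (1.08-fold lower). The robust SD of its nearest genes was 0.37, and 80.3% of genes differed more. Gpbar1 encodes TGR5, a membrane receptor for bile acids, and read 52.4 ± 6.24 and 38.3 ± 4.95. Its difference was 0.06, and its sign turned under 6 of 12 alternative settings, so it has no settled direction. On the cholic acid array the software did not find the Gpbar1 spot by its outline, although the signal was flagged as above background.

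Nr0b2 and Fgf15, the FXR targets best known for feedback, were not well above background on either array. Nr0b2 read 8.92 ± 3.43 in vehicle and 9.01 ± 3.22 in cholic acid. Fgf15 read 7.3 ± 3.73 and 7.26 ± 3.5. For each gene the values on both arrays lay within the error of a spot, and below the lowest signal that counted as measured. They passed a laxer flag, positive and significant against background, on both arrays, as did 10 of 308 negative control spots for vehicle and 7 of 308 for cholic acid. The negative controls had a median signal of 3.33 and 3.1. Their 95th percentile was 3.956 and 3.68, below the signals of both genes, and their highest spots read 39.6 and 19.2, above them. A fold change is not given, since neither array measured these genes, and a change below this limit could not be seen.

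Baat joins bile acids to glycine or taurine, mostly in the liver. It read 3.53 ± 3.54 in vehicle, a substitute value that the software writes for dim spots, and 4.72 ± 3.34 in cholic acid. Both values are within 1 error of each other and of the negative controls' median.

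**Figure D3:**
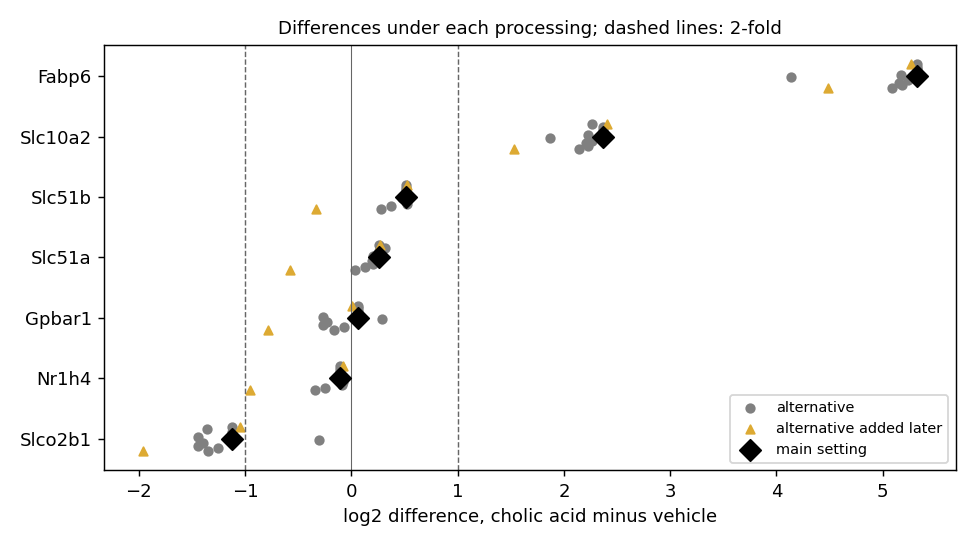
Log2 difference, cholic acid minus vehicle (x axis), of the 7 measured genes under the main processing (black diamonds), the alternative settings listed first (grey circles) and the pair added later (yellow triangles), with dashed lines at 2-fold. Fabp6 ran from 4.14 to 5.32 and Slc10a2 from 1.53 to 2.41, always above 2-fold, while Slco2b1 ran from -1.96 to -0.30.

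Other carriers that move bile acids or belong to the same families did not share the Fabp6 or Slc10a2 difference as a group. In a list of 22 such genes, both arrays measured 11, of which 2 were higher by 2-fold or more and 0 lower, with a median of -0.05. With quantile normalization, loess, normexp or the authors' values 0 were higher, and with spike-in scaling 0 were higher and 3 lower. The percentile over all probes or median centring gave 1 higher. The median was 0.24 with normexp, 0.04 with the GC correction and -0.89 with spike-in scaling. Abcc4, a basolateral efflux pump, read 19.7 in vehicle, near the lowest measured signal of 14.6, and 32.6 in cholic acid (2.37-fold higher). Slco3a1, another organic anion carrier, read 104 and 150 (2.06-fold higher). The efflux pumps Abcc3 (-0.52) and Abcc2 (0.33) differed by less than 2-fold. Slc10a1, the liver's sodium-dependent bile acid transporter and the closest relative of Slc10a2 in bile acid uptake, had probes that disagreed. One read 194000 and 213000, and the file lists transcripts of 4 genes for it. The other, specific to Slc10a1, read 3.58 and 3.32 and was not well above background. Without Slc10a1 the list's median was -0.09 over 10 genes.

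Other FXR targets had 12 of 16 members measured on both arrays, with 1 at least 2-fold higher and 1 lower. In all, 8 lay above 0 and 4 below. Their median was 0.51, against 0.08 for all genes, and with spike-in scaling -0.33 against -0.76. With the percentile over all probes, median centring, quantile normalization, loess or the authors' values, 2 were at least 2-fold lower. With spike-in scaling 4 were lower and 0 higher. Nos2, the inducible nitric oxide synthase, read 1105 in vehicle and 2464 in cholic acid (3.19-fold higher). Cyp3a11, a drug- and bile acid-oxidising enzyme that PXR also induces, read 4980 and 1245 (2.80-fold lower). Slc27a5, the bile acyl-CoA ligase, was measured in vehicle alone, at 78.8 against 13.4, and was at least 4.11-fold lower. The 10 genes within 2-fold lay between -0.94 and 0.9. Of these, the phospholipid pump Abcb4 differed by 0.44, the carbonic anhydrase Car12 by 0.65 and the cytokine Il18 by -0.52. Neither array measured the remaining 3, Abcb11, Fetub and Kng1.

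Partners and coregulators of FXR stayed within 2-fold in the main setting. The 25 of 26 that were measured all lay between -0.82 and 0.71, with a median of -0.12. With the percentile over all probes 1 was at least 2-fold lower, and with spike-in scaling 12 were, at a median of -0.96 where that of all genes was -0.76. The ends of that range were Vdr, the vitamin D receptor that also senses lithocholic acid, at -0.82 and the arginine methyltransferase Prmt1 at 0.71. The FXR partner Rxra differed by -0.32 with its probes going opposite ways. Gata4, known to hold back ileal genes in the proximal gut, read 1390 in vehicle and 893 in cholic acid, a scaled difference of -0.12.

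Of 9 genes for reception of Fgf15 and other bile acid signals, 4 were measured on both arrays. Fgfr4, the receptor of Fgf15, read 46 in vehicle and 96.1 in cholic acid (2.99-fold higher). Its coreceptor Klb was measured in cholic acid alone, at 25.3, where the vehicle probe stood at 14.6, and the difference was at least 2.48-fold. Both are dim. Fgfr3 differed by -0.95, short of 2-fold in the main setting. The lowest of the 4 genes was past 2-fold with several other scalings. It lay at -1.17 with the percentile over all probes, -1.08 with median centring, -1.09 with quantile normalization and -1.07 with loess. In the authors' values it was -1.1, with spike-in scaling -1.79 and with normexp -0.59. With spike-in scaling 0 of the 4 were at least 2-fold higher.

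Bile acid synthesis is a liver pathway, and its first enzyme Cyp7a1 and the sterol hydroxylase Cyp8b1 were not measured by either array. Of 17 genes in the list 10 were measured on both, with 1 at least 2-fold higher, 2 lower and a median of -0.18. Acox2, the peroxisomal oxidase that shortens the bile acid side chain, read 77.5 in vehicle and 121 in cholic acid (2.23-fold higher). Slc27a2, a very long-chain acyl-CoA synthetase, read 3860 and 1280 (2.11-fold lower). Cyp27a1, the sterol 27-hydroxylase, read 45.8 and 15.9 (2.01-fold lower), where the lowest cholic acid signal that counts as measured was 13.01. With the percentile over all probes, quantile normalization, loess, normexp or the authors' values, 0 of the 10 were at least 2-fold higher. With normexp or the GC correction 1 was lower, and with spike-in scaling 0 were higher and 5 lower.

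The paralogs of Fabp6 did not show its difference. Of 13 fatty acid- and retinoid-binding proteins of the family, 9 were measured, 1 was at least 2-fold higher and 0 were lower. With the percentile over all probes 1 was lower, and with spike-in scaling 0 were higher and 3 lower. The median of 0.28 has no settled sign, since it was -0.11 with quantile normalization and in the authors' values, -0.07 with loess and -0.56 with spike-in scaling. Fabp1, the liver-type protein of enterocytes, read 179000 in vehicle and 104000 in cholic acid (log2 difference -0.27). Fabp2, the intestinal type, read 325000 and 346000 (0.61). Fabp5, the epidermal type, read 283 and 473 and was 2.39-fold higher.

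With only 2 arrays, likeness to a gene can be no more than a similar difference. The search left out the set itself, predicted, clone and unnamed genes, and genes whose probes went opposite ways. Among the rest, the 3 genes nearest to Fabp6 by this measure were Vpreb3 (4.12), Ighv14-2 (3.78) and Prodh2 (3.69). Each lay at least 1.20 below Fabp6 on the log2 scale. Their vehicle signals were dim, at 18, 21.7 and 30.8, where the lowest measured signal was 14.6. Nearest to Slc10a2 among the same genes were Gabbr2 (2.37), Lat (2.38) and Trim68 (2.35).

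Markers of gut position and of other cells were read beside these genes, since the labels do not place the segments. Slc10a2 and Fabp6 are themselves ileal markers, and a segment taken further along the intestine cannot be told apart here from a response to cholic acid. Of 8 other distal markers 7 were measured, 4 lay above 0 and 3 below, and the median was 0.06, or -0.16 with the percentile over all probes, -0.07 with median centring and -0.78 with spike-in scaling. Their summed signal was 16770 in vehicle and 11840 in cholic acid, which after scaling was 15.82 and 15.97 times the 75th percentile. Gcg, the proglucagon gene of L cells, read 105.6 and 149.1 (2.02-fold higher). Cubn, an ileal endocytic receptor, went the other way at -0.94, and Insl5, a colonic hormone, was not well above background. In the main setting 1 of the 7 was thus at least 2-fold higher and 0 lower. With the percentile over all probes, median centring, quantile normalization, loess or the authors' values, 0 were higher and 1 lower. Spike-in scaling gave 0 higher and 2 lower, and normexp 0 of either.

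Proximal markers had 13 of 15 members measured, with a median of -0.27 and a summed scaled signal of 456.1 in vehicle and 336.3 in cholic acid. Onecut2, a duodenal transcription factor (2070 and 294), was 4.92-fold lower and the apolipoprotein gene Apoa4 (60700 and 12300) 3.45-fold lower. S100g, the calcium-binding protein of the duodenum (359.4 and 1537), was 6.12-fold higher. Pdx1 was not well above background, and Cybrd1 was measured in vehicle alone. The colonocyte list had 4 of 7 measured, all less than 2-fold apart, with a median of 0.09 that turned negative under 6 alternative settings, and a summed scaled signal of 2.83 and 2.52. Its members Hoxb13 and Slc37a2 were not well above background. The part of gut position in the Fabp6 and Slc10a2 differences was not tested.

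Enterocyte markers, which check the labelled cell type, were measured in all 14 cases. Their summed scaled signal was 1412 in vehicle and 1439 in cholic acid, while 11 of 14 lay below 0 and the median was -0.44. Lymphocyte markers stood on the side of Fabp6 and Slc10a2. All 13 measured T cell markers lay above 0 (median 1.07, summed scaled signal 98.8 and 165.6). A summed signal mostly reflects the brightest probes of its list. Gzma, at 87500 in vehicle and 97600 in cholic acid (log2 difference 0.67), made up most of this one. With spike-in scaling 4 of the 13 T cell markers fell below 0. In the main setting 7 were at least 2-fold higher, and 3 with the percentile over all probes or with spike-in scaling. For B and plasma cells 6 of 8 were measured, all above 0 in the main setting (median 1.49, summed scaled signal 3.27 and 4.47). Jchain, at 3100 and 2190 (log2 difference 0.02), made up most of that sum. With the percentile over all probes, median centring or normexp 1 of the 6 lay below 0, and with spike-in scaling 2 did. In the main setting 4 were at least 2-fold higher, and with spike-in scaling 2 were. Ms4a1, which encodes the B cell surface protein CD20, was measured in cholic acid alone and was at least 16.1-fold higher. Smooth muscle markers had 6 of 8 measured (median 0.83, but -0.01 with spike-in scaling, summed scaled signal 1.12 and 1.43). Cnn1 read 15.8 in vehicle, near the lowest measured signal of 14.6, and 36.9 in cholic acid (3.34-fold higher). Myl9 was 2.01-fold higher, and Des and Myh11 were not well above background. With the percentile over all probes, median centring, quantile normalization, loess, the authors' values or the GC correction, 1 smooth muscle marker was at least 2-fold higher. With normexp or spike-in scaling 0 were. In such a mixture of cells, more cells of a type and more RNA per cell cannot be told apart, and the part of these cells in the results above was not tested. Of 10 hepatocyte markers 4 were measured, and the Slc10a1 probe that lists 4 genes carried most of their summed scaled signal of 225.1 and 318.2. Without it the sum over the other 3 went the other way, from 42.1 in vehicle to 30.7 in cholic acid, with a median of 0.34. Nearly all of that sum was Apob, at 44540 and 22670 (log2 difference -0.46). Tat differed by 0.34, and Serpina1a by 0.43 with its probes going opposite ways. The hepatocyte genes Alb, Ttr, Ahsg and Fgb and the acinar genes Prss1, Prss2, Cpa1 and Cela2a were not measured by either array. The 4 acinar markers that were measured had a median of -0.20 (0.23 with normexp) and a summed scaled signal of 0.398 and 0.289, with Clps 2.13-fold lower. Pnlip, measured in vehicle alone, was at least 2.32-fold lower.

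**Figure D4:**
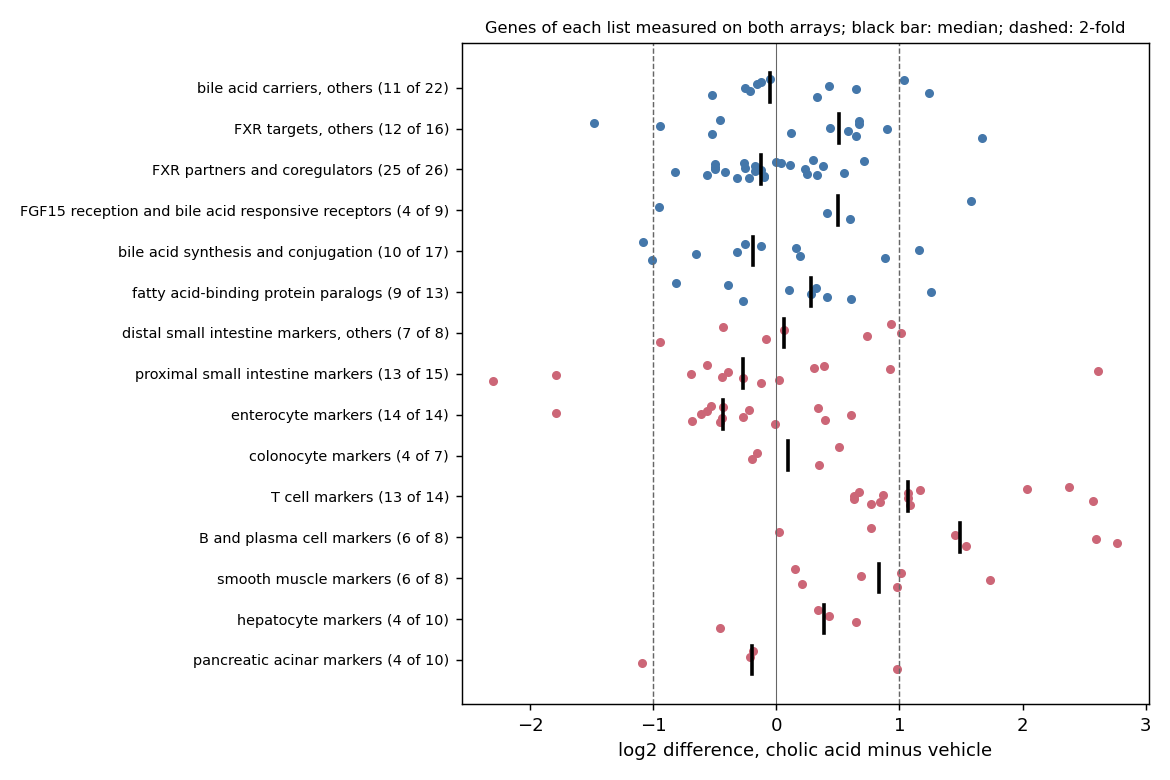
Log2 difference, cholic acid minus vehicle (x axis), of every gene measured on both arrays in each list (rows; in brackets, measured of listed), with pathway lists in blue, marker lists in red, a black bar at each median and dashed lines at 2-fold. The T cell markers all lie at 0.63 or above, while the FXR partners all lie between -0.82 and 0.71.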

How the data were processed

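RNA from 1 vehicle and 1 cholic acid sample was labelled with Cy3 and hybridised to Agilent design 028005. Per the file headers, intensity was read with Feature Extraction 10.7.1.1 (the submitters' processing notes list 9.5.1.1), background-subtracted and detrended within each array, with probe positions on mm9. Spot flags and pixel numbers are other columns of the same deposited files. A table of the authors' own processed intensity values was deposited too, and its nearly identical sorted columns show quantile normalization.

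Outlier spots were dropped (124 for vehicle, 119 for cholic acid), log2 signals were averaged per probe, and each array was centred on its 75th percentile over the probes measured on both. Probes measured on both arrays were averaged per gene. Where only 1 array measured a gene, the bound compares its signal with whichever was higher on the other array, the probe's signal or the lowest one well above background. Genes outside the set were named by accession, symbol or synonym in RefSeq's table of GRCm38.p6 (27235, 3581 and 560 probes), 1603 probes kept the file's name and 22702 had none. With 1 array per group no test or p-value was possible, and the number of arrays limits the precision. The robust SD and the spread over 225 probes spotted many times (median 0.108 for a log2 difference between single spots) describe the arrays only.

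The members, gene lists, motifs and named genes were chosen with earlier results of these data known. From each list, genes at least 2-fold apart or with a bound of at least 2-fold were named, otherwise up to 2 with the largest difference. Further examples were chosen after their values were seen, and a few listed items are not reported here. Alternatives were other scalings (75th percentile over all probes, median, quantile, loess, spike-ins), normexp with an offset of 50, the authors' values, laxer detection filters, the brightest probe, probes matched by accession, a GC correction and fold limits of 1.5 and 3. The computation used Python 3.11.15 and limma 3.58.1 for normexp, and was tested on simulated data.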

Additional observations from a re-analysis of the deposited data

Results flagged for a closer look

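One signal lay outside the probes that define the set. A probe of Slc10a2 is filed under the clone name 9130221J18Rik and was found by synonym in RefSeq's table. It read 64.4 in vehicle and 200 in cholic acid, well above background on both, where 1 of 308 negative control spots was. Averaging it with the other Slc10a2 probe gave a difference of 2.26 in place of 2.37.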

How the results depend on the processing

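Results were recomputed under 12 alternative settings, and under 2 more (spike-in scaling and a correction for probe GC content) chosen after seeing the data. Fabp6 and Slc10a2 stayed at least 2-fold higher in each of the 12 settings for which differences were recomputed, and the other 2 change the fold limit. Not all of the 12 could move these genes. The laxer detection filters and the brightest probe gave the main values of both again, since each has 1 probe in the set. The count of lower genes was 1 in the main setting and 0 with normexp (Slco2b1 at -0.30) and at a 3-fold limit. The offset of 50 in normexp shrinks differences of dim probes by construction. Over the alternatives Slc51a ran from -0.58 to 0.32, Slc51b from -0.33 to 0.52, Nr1h4 from -0.95 to -0.08 and Gpbar1 from -0.78 to 0.29. The lowest value of each was with spike-in scaling, which moved the median of all genes from 0.08 to -0.76. Of 84 values of the 7 genes under alternatives, 53 moved by less than the spread between replicate spots, 31 by more, and 0 of the genes at least 2-fold apart changed sign. The 53 include values that a setting could not move. The laxer detection filters left all 7 genes as they were, and the brightest probe left those with 1 probe. Their number is therefore no measure of stability. With the laxer flag, 9 genes counted as measured in place of 7, and with no filter 10. The genes this adds, Nr0b2, Fgf15 and Baat, lay too near background for a difference to be given. The share of higher genes among all genes at least 2-fold apart was 76.2% in the main setting, 44.3% with the percentile over all probes, 51.5% in the authors' table and 3.08% with spike-in scaling (120 higher, 3781 lower). No paired analysis was possible because each group has 1 array.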
